A study of Sus scrofa with 8 samples.

Results

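Wnt, Notch and Hippo pathway genes were examined in the pig oviduct 24 h after X- or Y-chromosome-bearing spermatozoa had been placed in it. The members are all probe sets of the Affymetrix Porcine array whose single gene symbol in the platform annotation named a Wnt ligand, a Frizzled or LRP5/6 receptor, a secreted Wnt inhibitor, an inner component (DVL, AXIN, APC) or transcription factor of the Wnt pathway, a Notch ligand, receptor or nuclear factor, a LATS kinase, YAP1 or a TEAD factor. This rule used names only, and gave 36 of the 24123 probe sets on the array, for 22 of the 6790 different genes that had a probe set with 1 symbol. In all, 11 genes had several probe sets and the other 11 had 1 each, so the 36 are not independent measurements. No probe set of the rule was found for DVL, AXIN, APC, LRP5, WIF1, YAP1, LATS1 or NOTCH1 to NOTCH3, and these genes were not analysed here.

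In Wnt signalling, secreted WNT proteins bind Frizzled receptors and the co-receptors LRP5 and LRP6, which stabilises beta-catenin and lets it act with TCF/LEF transcription factors. Secreted proteins of the DKK and SFRP families can restrain the pathway outside the cell, though not every family member is known to. In Notch signalling, a JAG or DLL ligand on one cell triggers cleavage of a NOTCH receptor on its neighbour, and the freed receptor fragment joins RBPJ on DNA and switches on HES and HEY repressor genes. In the Hippo pathway, LATS kinases hold the co-activator YAP1 out of the nucleus, where it would act with TEAD factors. In the oviduct, Wnt and Notch signalling are known for a part in the balance of secretory and ciliated epithelial cells. Wnt signalling is also known for a part in shaping the muscle and stroma of the tube.

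Each of 4 weaned crossbred Landrace × Large White sows received sorted X-spermatozoa in one oviduct and sorted Y-spermatozoa in the other, with the doses pooled from 3 boars. Both uterine horns were stapled so that sperm could not cross, and cells were scraped from the mucosa before ovulation. No oviduct without spermatozoa was on the arrays, so each value compares the sperm types with each other and not with an untreated oviduct. The 8 arrays are named X1 to X4 and Y1 to Y4 after sperm type and the replicate number of their labels, 1 array per oviduct. The biological replicates of the study were 4 sows, so arrays with the same number are taken here as oviducts of the same sow. Neither the labels nor the study states this pairing, and every result by sow rests on it. In such bulk samples fewer cells of a type and less RNA per cell cannot be told apart.

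Signals are the linear values deposited by the authors, and differences are log2 values after quantile normalization, Y-spermatozoa minus X-spermatozoa, with the standard error (SE) and P-value of limma. The signal of one probe set cannot be set against that of another. Background, the 95th percentile of 81 probe sets without a pig target, was 8.5 to 12.3 on the arrays. The scraped cells carried markers of oviduct epithelium on all 8 arrays. A list made for secretory cells, with 7 measured markers, had summed signals of 13723 to 17287. Among the 7, OVGP1 is a secretory product, while EPCAM, CDH1 and the keratins KRT8, KRT18 and KRT19 are shared by epithelial cells in general. The 7 are therefore called epithelial markers here. The 2 ciliated cell markers, CAPS and TPPP3, summed to 1679 to 2360. Smooth muscle markers were present as well, and their sum varied from 1549 to 7624.

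Most members were expressed above background. Of the 36 probe sets, 30 lay above it on all 8 arrays. The only probe sets of WNT10B and DKK1 and one of the pair for TEAD1 lay below it on every array, and TCF7L2 (1 of 2 probe sets), HEY2 (1 of 3) and TEAD4 lay above it on 7, 5 and 4 arrays.

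RBPJ, FZD6 and TEAD1 had 1 probe set each with an unadjusted P-value under 0.05, and these 3 of the 36 were all lower with Y-spermatozoa. That is 8.33% of the members, against 3.56% of all 23999 probe sets tested. In the lower direction the background was 1.94% and in the higher direction, in which no member passed, it was 1.62%. After Benjamini-Hochberg adjustment over all probe sets no member passed in limma (every adjusted P-value was 1), and none of the other probe sets did. The same 3 were the only members whose groups did not overlap in signal (8.33%, against 2.30% of all probe sets). With the sow as a block, 2 members passed (5.56%, against 5.09%), because FZD6 did not. The TEAD1 probe set among the 3 was below background on every array.

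The members together lay slightly to the lower side, with 25 log2 differences below zero and 11 above, and a median of -0.08 against 0.00 over all probe sets. Over all probe sets, 11760 lay below zero and 12179 above. In the alternatives that kept all 36, 19 to 29 were below zero, the fewest without X1. In all, 5 member probe sets (13.9%) were lower in 4 of 4 sows and none was higher in all. Of all 23999 probe sets tested, 13.2% had one direction in every sow, 1611 of them lower and 1546 higher. The 5 members were RBPJ, TEAD1, both FZD6 probe sets and one of JAG1. The median half-width of the 95% intervals of the members was 0.46, so that differences smaller than this were mostly not detectable with 4 arrays a group.

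**Figure D1:**
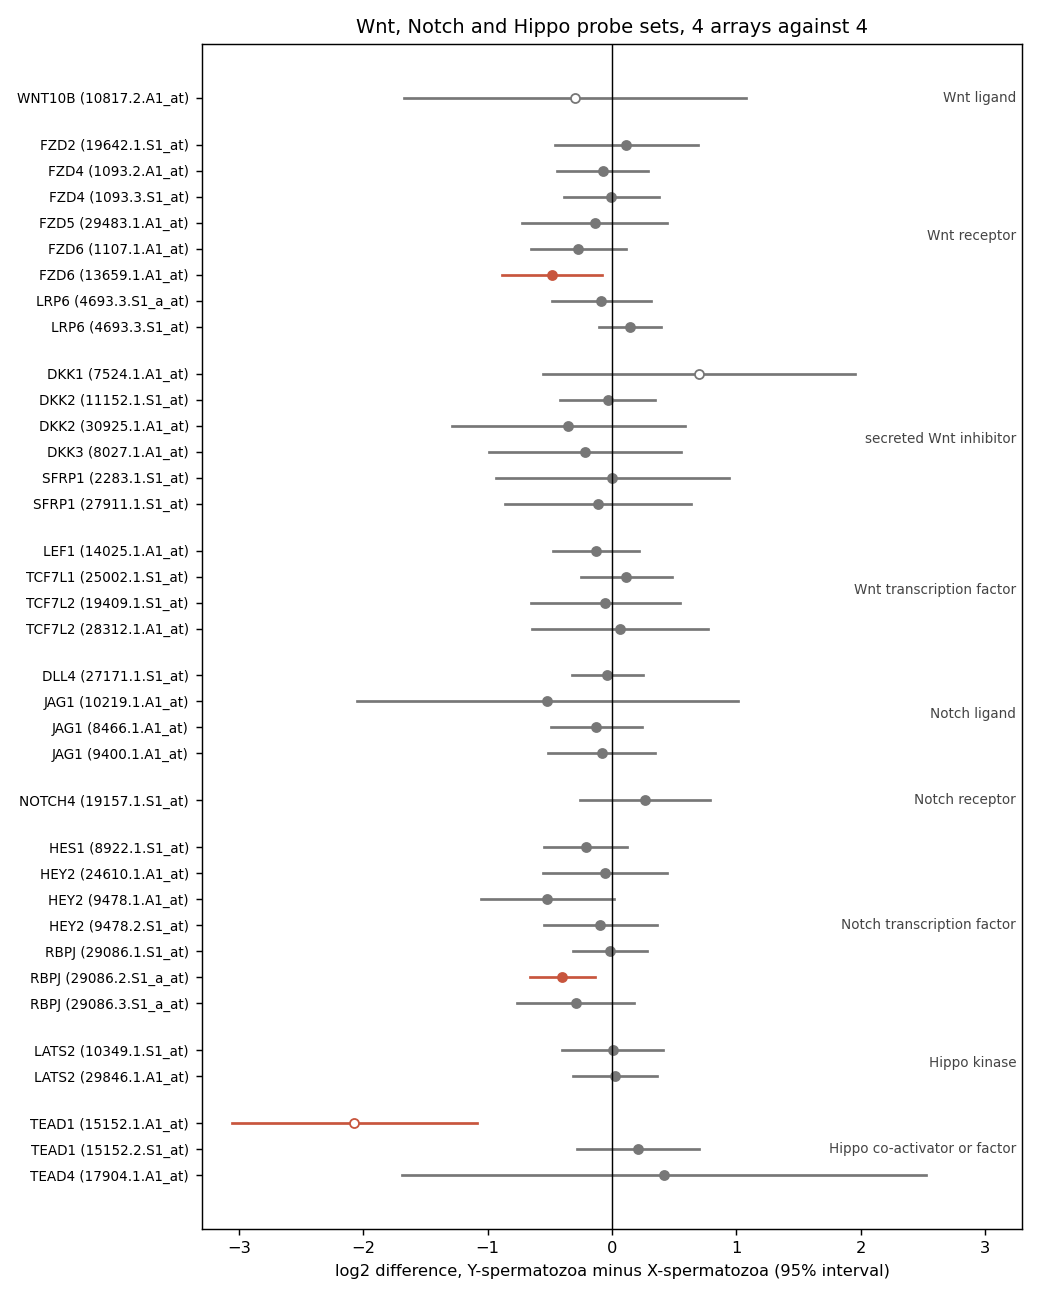
Horizontal axis, log2 difference (Y-spermatozoa minus X-spermatozoa) of the 36 member probe sets, grouped by role, with the 95% interval of limma as bars. The 3 probe sets with an unadjusted P-value under 0.05 are coloured, and hollow points mark the 3 that lay below background on all 8 arrays.

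RBPJ, the DNA-binding partner through which every Notch receptor acts, was lower with Y-spermatozoa by 1 of its 3 probe sets. The signals of Ssc.29086.2.S1_a_at were 83.2, 78.3, 96.1 and 87.5 on X1 to X4 and 57.6, 63.8, 67.7 and 70.3 on Y1 to Y4. Every Y-spermatozoa array lay below every X-spermatozoa array. The log2 difference was -0.40 (SE 0.11, limma P-value 0.00849, lower in 4 of 4 sows), and -0.40 with the sow as a block (P-value 0.0120). This difference was already known from earlier results of these arrays, so it is not independent evidence.

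The other RBPJ probe sets did not pass. Ssc.29086.3.S1_a_at had signals of 122.8, 84.8, 118.6 and 108.0 with X-spermatozoa and 65.4, 81.0, 94.9 and 113.9 with Y-spermatozoa, a log2 difference of -0.29 (SE 0.20), lower in 3 of 4 sows. Ssc.29086.1.S1_at had signals of 181.6, 154.2, 132.4 and 151.7 and of 141.5, 152.7, 148.5 and 163.5, a log2 difference of -0.02 (95% interval -0.31 to 0.28). So the probe sets disagreed about RBPJ. By Affymetrix naming, a probe set ending in _a_at matches alternative transcripts of one gene.

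Within each array, the log2 ratio of Ssc.29086.2.S1_a_at to Ssc.29086.1.S1_at was -0.84 ± 0.28 (SD, n = 4) on X1 to X4 and -1.22 ± 0.05 (SD, n = 4) on Y1 to Y4, lower in 4 of 4 sows. Against Ssc.29086.3.S1_a_at the ratio was -0.32 ± 0.18 (SD, n = 4) and -0.43 ± 0.22 (SD, n = 4), which overlapped. These ratios were chosen after the values were seen and are a description, with no test.

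When the level of the spiked hybridisation controls entered the fit, the RBPJ difference was -0.26 and no longer passed (limma P-value 0.244). These controls stood at 9.82 to 10.06 on the log2 scale on Y1 to Y4 and at 9.65 to 9.82 on X1 to X4, with Y2 just below X2. The control level thus nearly followed sperm type, so that fit cannot tell control level and sperm type apart. The sums of the 7 epithelial markers did not overlap, at 13723 to 16336 with X-spermatozoa and 16485 to 17287 with Y-spermatozoa. In an exact two-sided permutation test p was 0.0286, the smallest value possible with 4 arrays against 4. The other marker lists had p of 0.343 to 0.886 in that test. OVGP1, the largest part of the sum, overlapped between groups, at 5841 to 8469 with X-spermatozoa and 7769 to 9315 with Y-spermatozoa. After quantile normalization the median log2 difference of these 7 genes was 0.06, and none of them passed. The part of the hybridisation controls or of the epithelial markers in the RBPJ difference was not tested.

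**Figure D2:**
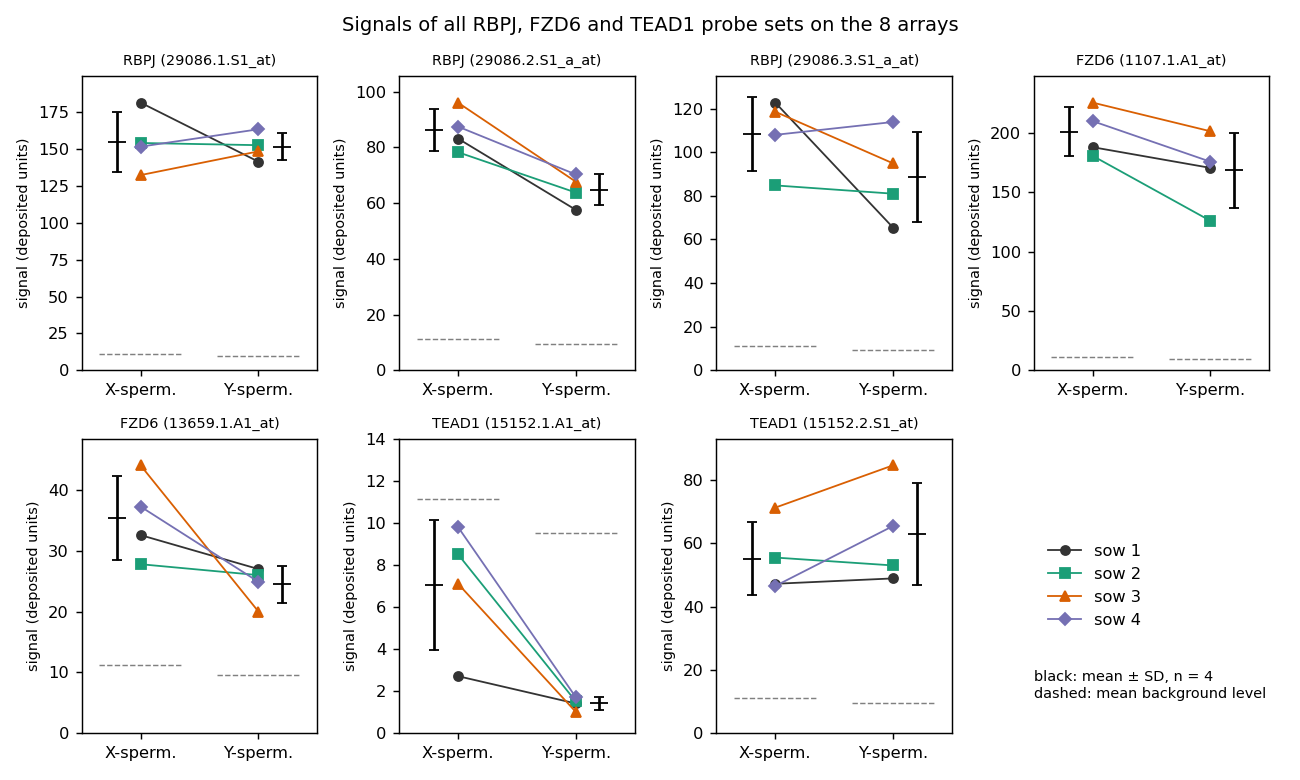
Deposited signals (vertical axes, linear) of all probe sets of RBPJ, FZD6 and TEAD1 with X- and Y-spermatozoa, lines joining the 2 oviducts of a sow, with mean ± SD (n = 4) in black and the mean background level dashed. RBPJ Ssc.29086.2.S1_a_at falls in each sow while Ssc.29086.1.S1_at does not, and TEAD1 Ssc.15152.1.A1_at lies below background on both sides.

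The RBPJ targets HES1 and HEY2, transcriptional repressors that carry the Notch signal onward, did not pass in any of 4 probe sets. HES1 had signals of 151.6, 152.7, 156.6 and 173.9 with X-spermatozoa and 109.0, 136.1, 158.2 and 146.5 with Y-spermatozoa, a log2 difference of -0.21 (95% interval -0.54 to 0.12). The groups overlapped through Y3, and HES1 was lower with Y-spermatozoa in 3 of 4 sows. The brightest HEY2 probe set, Ssc.24610.1.A1_at, had signals of 743.0, 591.1, 436.4 and 526.4 and of 744.7, 524.7, 475.7 and 488.4. Its log2 difference was -0.06 (95% interval -0.55 to 0.44), and the order of the sows was the same on both sides.

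The dim HEY2 probe set Ssc.9478.1.A1_at stood closest to the threshold among the members that did not pass. Its signals were 10.8, 17.0, 9.9 and 14.8 with X-spermatozoa and 10.3, 9.0, 7.9 and 6.7 with Y-spermatozoa, close to background, with a log2 difference of -0.52 (SE 0.23, limma P-value 0.0556). It passed with median centring (one of 9 alternatives in which it did) and lay above background on 5 arrays. The third HEY2 probe set, Ssc.9478.2.S1_at, had a log2 difference of -0.09 (SE 0.20).

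The Notch ligands were JAG1 and DLL4. JAG1 Ssc.9400.1.A1_at had signals of 1114, 915.3, 1103 and 978.4 with X-spermatozoa and 1154, 807.9, 1189 and 856.8 with Y-spermatozoa, a log2 difference of -0.08 (95% interval -0.51 to 0.34). The groups overlapped fully, with sows 1 and 3 high on both sides. The other JAG1 probe sets had log2 differences of -0.13 (SE 0.16) and -0.52 (SE 0.66), the latter lower in 4 of 4 sows with a wide spread between sows. DLL4, a ligand best known from the endothelium, had signals of 67.2 to 86.6 with X-spermatozoa and 72.3 to 87.2 with Y-spermatozoa and a log2 difference of -0.04 (SE 0.12).

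NOTCH4, a receptor known mainly from blood vessels and the only Notch receptor measured, was the only one of the 12 Notch members with a difference above zero. Its signals were 66.2, 85.1, 59.2 and 48.3 with X-spermatozoa and 62.3, 103.6, 74.6 and 67.9 with Y-spermatozoa, a log2 difference of 0.27 (SE 0.23, limma P-value 0.273). It was higher in 3 of 4 sows, sow 1 being the exception. The 5 endothelial markers had sums of 243 to 356 with X-spermatozoa and 216 to 419 with Y-spermatozoa, highest in sow 2 as NOTCH4 was. On average these sums were lowest in sow 1, whereas NOTCH4 was lowest in sow 4. The part of these markers in NOTCH4 was not tested. The remaining 11 of the 12 Notch members lay below zero, 10 with arrays centred on their median and 8 without X1, and they come from 5 genes, with 3 probe sets each for RBPJ, HEY2 and JAG1. The 23 probe sets of further Notch genes described at the end were split evenly, 11 above and 12 below zero with a median of -0.03.

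Of the Wnt receptors, FZD6, a Frizzled known for planar cell polarity, was lower with Y-spermatozoa. The signals of Ssc.13659.1.A1_at were 32.6, 27.8, 44.1 and 37.3 on X1 to X4 and 27.0, 26.0, 20.0 and 24.9 on Y1 to Y4, so the groups did not overlap although X2 and Y1 were close. The log2 difference was -0.48 (SE 0.17, limma P-value 0.0255, lower in 4 of 4 sows). The P-value was 0.0748 with the sow as a block and 0.355 with the hybridisation controls as a covariate. Without X3, X4 or Y3 it rose to 0.0656, 0.0607 and 0.0633.

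The other FZD6 probe set, Ssc.1107.1.A1_at, went the same way in 4 of 4 sows without passing. Its signals were 188.2, 180.9, 225.8 and 210.2 with X-spermatozoa and 170.7, 126.0, 201.6 and 175.9 with Y-spermatozoa. The log2 difference was -0.27 (SE 0.16, limma P-value 0.140, and 0.0631 with the sow as a block). Within arrays the log2 ratio of the FZD6 probe sets was -2.54 ± 0.13 (SD, n = 4) and -2.75 ± 0.47 (SD, n = 4), which overlapped.

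No other Wnt receptor passed. FZD4, which also serves the norrin signal in vessels, had signals of 453.7, 406.0, 471.8 and 442.8 with X-spermatozoa and 504.6, 327.3, 472.3 and 404.5 with Y-spermatozoa in Ssc.1093.2.A1_at, a log2 difference of -0.08 (95% interval -0.44 to 0.29). Its second probe set had a log2 difference of 0.00 (95% interval -0.39 to 0.38). FZD5 and FZD2 had log2 differences of -0.14 (SE 0.25) and 0.12 (SE 0.25). Both probe sets of the co-receptor LRP6 were designed on the same source sequence and had log2 differences of -0.09 (SE 0.17) and 0.14 (SE 0.11), opposite in sign.

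WNT10B, the only ligand among the members, had signals of 4.5, 0.5, 3.5 and 1.3 with X-spermatozoa and 1.5, 3.5, 0.8 and 1.3 with Y-spermatozoa. All 8 values lay below background, so no fold is given. The probe set that the annotation used by the study assigns to WNT5B carries no symbol in the platform annotation and is not a member. The study lists it among its altered transcripts (P-value under 0.05), from values normalized by another method (RMA) than the signals used here. Its signals were 5.3, 18.9, 13.1 and 7.5 with X-spermatozoa and 15.8, 14.5, 15.1 and 2.8 with Y-spermatozoa, 3 of them below background, and its log2 difference was 0.07 (SE 0.66, limma P-value 0.922).

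None of the members grouped by family name as secreted Wnt inhibitors passed. DKK2, which binds LRP co-receptors, had signals of 252.8, 168.3, 200.2 and 236.1 with X-spermatozoa and 224.2, 170.7, 223.5 and 214.3 with Y-spermatozoa in Ssc.11152.1.S1_at. Its log2 difference was -0.04 (95% interval -0.42 to 0.35), and its second probe set, Ssc.30925.1.A1_at, had -0.35 (SE 0.40). SFRP1, which binds WNT proteins, had log2 differences of 0.00 (SE 0.40) and -0.11 (SE 0.32), and DKK3 of -0.22 (SE 0.33). DKK1 was below background on all arrays, at signals of 0.2 to 3.9. The wide SEs of DKK3, SFRP1 and the second DKK2 probe set go with a spread between sows, described further on.

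No Wnt transcription factor passed. TCF7L1, mainly a repressor of Wnt targets, had signals of 203.3, 235.4, 178.4 and 254.9 with X-spermatozoa and 241.7, 216.6, 206.7 and 273.6 with Y-spermatozoa, a log2 difference of 0.12 (95% interval -0.25 to 0.48). LEF1 had signals of 45.9 to 54.4 and of 39.3 to 59.3, a log2 difference of -0.13 (95% interval -0.48 to 0.22). The TCF7L2 probe sets had log2 differences of -0.06 (SE 0.26) and 0.07 (SE 0.30).

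In the Hippo pathway, TEAD1, a DNA-binding partner of YAP1, was the third gene with a probe set past the threshold. Ssc.15152.1.A1_at had signals of 2.7, 8.5, 7.1 and 9.8 with X-spermatozoa and 1.4, 1.5, 1.0 and 1.7 with Y-spermatozoa. All 8 values were below the background of their arrays, so no fold is given, although the groups did not overlap (limma P-value 0.00137). With signals raised to the background level it did not pass (P-value 0.219).

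The TEAD1 probe set above background, Ssc.15152.2.S1_at, pointed the other way. It had signals of 47.2, 55.5, 71.3 and 46.5 with X-spermatozoa and 48.9, 53.0, 84.7 and 65.5 with Y-spermatozoa, a log2 difference of 0.21 (SE 0.21, limma P-value 0.353), higher in 3 of 4 sows. TEAD4 had signals of 1.7 to 27.6 and lay below background on 4 arrays. LATS2, the only kinase of the pathway among the members, had its brighter signals in Ssc.29846.1.A1_at. They were 107.6, 115.7, 116.5 and 98.5 with X-spermatozoa and 94.5, 139.7, 107.5 and 104.0 with Y-spermatozoa. The log2 differences of LATS2 were 0.03 (95% interval -0.31 to 0.36) and 0.01 (95% interval -0.40 to 0.41) in its 2 probe sets.

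The members also varied between sows, as did the whole array. By the F test of limma for the sow, 7 members (19.4%) had an unadjusted P-value under 0.05, against 14.2% of all probe sets, and none of them passed after adjustment. The 7 were both SFRP1 probe sets, 2 of HEY2, and 1 each of JAG1, TCF7L2 and FZD5. Among the 11999 brighter probe sets tested alone, 24 of which are members, 7.46% passed an adjusted P-value of 0.05, and so did 2 members, both for SFRP1 (adjusted P-values 0.0482 and 0.0431). Sow 1 carried much of this: without it 1 of 36 passed the unadjusted threshold, against 11.8% of all probe sets, and 5 to 7 passed without each of the other sows.

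SFRP1 was low in both oviducts of sow 1. The signals of Ssc.27911.1.S1_at were 93.4 on X1 and 82.1 on Y1, while the other 6 arrays ran from 123.4 to 206.3. Ssc.2283.1.S1_at gave 83.6 and 53.8 in sow 1 against 113.5 to 181.8 in the others. The highest and lowest sow means differed 2.10-fold and 2.35-fold, and the probe sets gave the same lowest sow.

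DKK2 Ssc.30925.1.A1_at and DKK3 were also lowest in sow 1 on average, without passing the F test (P-values 0.0832 and 0.0821). DKK3 was low in sow 4 as well, at 73.3 and 75.4, where SFRP1 was highest on average. DKK2 Ssc.30925.1.A1_at had 29.8 and 15.5 in sow 1 and 34.8 to 64.1 elsewhere, and DKK3 had 74.0 and 53.1 in sow 1 and 73.3 to 138.3 elsewhere. The summed smooth muscle markers, led in signal by ACTA2 and ACTG2, were lowest in sow 1 too, on average. They were 2462 and 1549 on X1 and Y1, 7624 and 5609 in sow 2, 6677 and 2045 in sow 3, and 4246 and 6728 in sow 4. Fibroblast markers summed to 4467 and 3172 in sow 1, and to 3758 to 6726 on the other arrays. The part of muscle or stroma in the signals of the inhibitors was not tested. All 6 measured muscle markers had a log2 difference below zero, with a median of -0.38, and none passed.

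**Figure D3:**
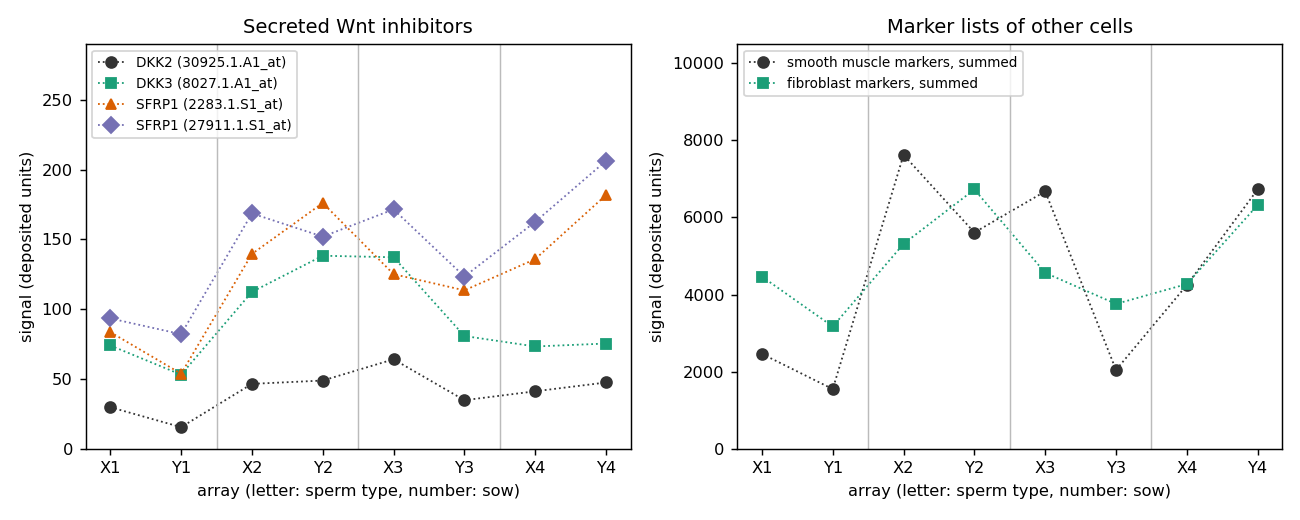
Deposited signals (vertical axes, linear) of 4 probe sets of secreted Wnt inhibitors (left) and of the summed smooth muscle and fibroblast markers (right) on the 8 arrays, with the arrays of one sow side by side. Y1 is the lowest array in every line drawn, and the muscle sum is 2045 on Y3 against 6677 on X3.

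HEY2 was highest in sow 1 by its 2 brighter probe sets. Ssc.24610.1.A1_at had 743.0 and 744.7 in sow 1 and 436.4 to 591.1 in the others, and Ssc.9478.2.S1_at had 109.5 and 101.5 in sow 1 and 67.1 to 97.5 in the others. The dim Ssc.9478.1.A1_at was highest in sow 2, with 17.0 and 9.0 against 10.8 and 10.3 in sow 1. The sow accounted for 96.1% and 95.6% of the spread of the 2 brighter probe sets around their group means. The median was 70.5% for the members and 64.2% for all probe sets. Even without any difference between sows, their means take up a large part of such spread. The shares can therefore be read only beside that of all probe sets. TCF7L2 Ssc.19409.1.S1_at was also highest in sow 1, with 33.2 and 38.5 against 17.2 to 25.8.

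The probe sets of JAG1 disagreed about the sows. Ssc.10219.1.A1_at had 11.8 on X1 and 10.9 on Y1 against 22.5 to 65.7 on the other arrays, a 4.84-fold range of sow means. In Ssc.9400.1.A1_at the lowest sow was sow 2 and the range was 1.40-fold. FZD5 was high in sows 1 and 4, with signals of 151.5 to 168.6, and low in sows 2 and 3, with 85.8 to 125.1. Both FZD4 probe sets had their lowest values in sow 2, at 406.0 and 327.3 and at 105.4 and 91.1.

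Over all 36 member probe sets, deviations from the group means correlated between the oviducts of a sow by 0.23 in sow 1, -0.14 in sow 2, 0.17 in sow 3 and -0.42 in sow 4, within the range of -0.71 to 0.50 between an X-spermatozoa array and a Y-spermatozoa array of different sows. Over the 30 probe sets above background on all arrays, they were 0.80, 0.62, 0.48 and 0.11, and between different sows -0.65 to 0.46. Agreement above the range between sows was thus seen only without the 6 dim probe sets, barely in sow 3 and not in sow 4. The deviations of a group cancel out in each probe set, so values within and between sows are not independent. These values are across probe sets, some of which share a gene, and probe sets are not independent replicates.

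**Figure D4:**
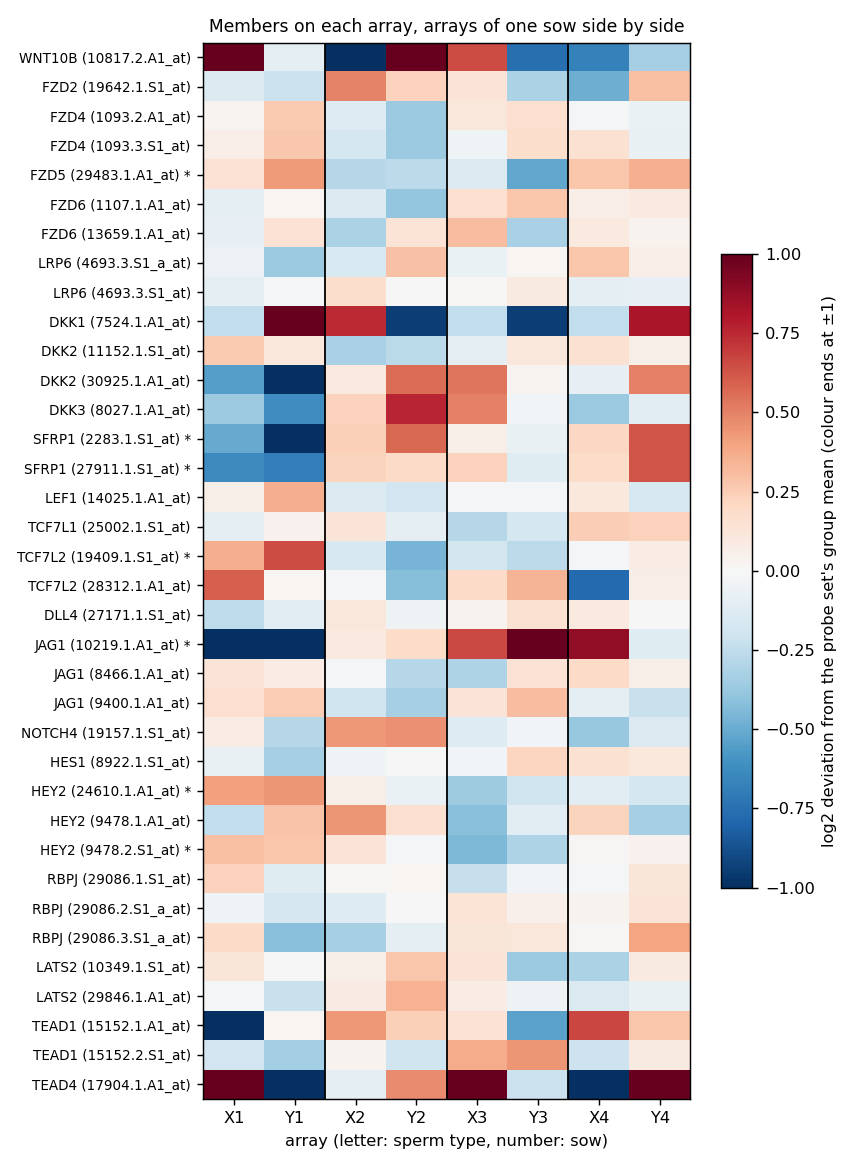
Log2 deviation of each of the 36 member probe sets from its group mean (colour) on the 8 arrays (columns, arrays of one sow side by side). Asterisks mark the 7 probe sets with an unadjusted P-value under 0.05 between sows, and sow 1 shows low SFRP1 in both oviducts and high HEY2 in both by the 2 HEY2 probe sets with an asterisk.

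Other genes of the pathways were taken from a list of 105 symbols, of which 31 genes were measured in 57 probe sets. One of these 57 (1.75%) was lower with Y-spermatozoa at an unadjusted P-value of 0.05, against 1.94% of all probe sets, and none was higher. It was FAT1, an atypical cadherin that acts upstream of the Hippo kinases. Its signals were 17.2, 19.3, 16.5 and 18.4 with X-spermatozoa and 13.3, 10.7, 10.5 and 13.9 with Y-spermatozoa. They were above background, on Y3 only just (background 9.8), and did not overlap. No other of the 57 was without overlap (1.75%, against 2.30% of all probe sets). The log2 difference was -0.49 (SE 0.14, limma P-value 0.00736, adjusted P-value 1). A brighter FAT1 probe set had a log2 difference of -0.19 (SE 0.13) and the remaining one lay below background on all arrays. None of the 23 probe sets of 13 further Notch genes passed, among them the receptor-cleaving proteases ADAM10 and ADAM17 and the gamma-secretase subunits NCSTN, APH1A, PSEN2 and PSENEN. None of the 18 probe sets of 8 further Wnt genes passed, CTNNB1 (beta-catenin) and the WNT carrier WLS among them. With the sow as a block 3 of the 57 passed (5.26%, against 5.09% of all probe sets), all lower with Y-spermatozoa. They were FAT1 and 1 probe set each of the kinase genes TAOK3 (log2 difference -0.75, P-value 0.0286) and CSNK1A1 (-0.23, P-value 0.0481). That of TAOK3 was lower in 3 of 4 sows. The other probe sets of these kinase genes did not pass. Their log2 differences were 0.02 (the brightest) and 0.08 for TAOK3, and -0.11 and 0.08 for CSNK1A1, both brighter than the one that passed.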

How the data were processed

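The deposited files hold linear intensity values that the authors made with Microarray Suite (MAS5) 5.1, 1 per probe set, scaled to one trimmed mean per array. The methods describe RMA values, for which probe-level data were not used here. Signals of all 24123 probe sets were quantile normalized, raised to at least 1 and put on the log2 scale. Then 124 AFFX controls were left out and 23999 probe sets were compared with limma 3.58.1 in R 4.3.3 (lmFit, eBayes, two-sided, no block; the methods name limma and t-tests, and no block), with Benjamini-Hochberg adjustment over all of them. The number of arrays limits the precision.

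Replicate numbers of the labels were taken to pair the arrays by sow, which neither the labels nor the study states. Over all probe sets, arrays with the same number shared deviations from their groups with r of 0.13 to 0.19. Over the 36 member probe sets this r ran from -0.42 to 0.23, and over the 30 above background on all arrays from 0.11 to 0.80. These values do not settle the pairing. The sow was a block in an alternative fit and was tested by an F test with the group as a term. Symbols came from the platform annotation, in which 10140 probe sets had 1 symbol, 157 several and 13826 none. All 36 member probe sets had the same symbol in the gene table of assembly Sscrofa11.1. Members, lists and tests were chosen with earlier results of these data known. Values on every array are given for members with an unadjusted P-value under 0.05 with or without the block, or whose groups did not overlap, and for the brightest probe set of each role. Others named were chosen after their values were seen. Fits were tested on simulated data. Background came from 64 reporter and 17 tag probe sets, since bacterial controls carried signal. Lists were summarised in Python 3.11.15.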

Additional observations from a re-analysis of the deposited data

Results flagged for a closer look

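In 2 of the 72 sets of 4 signals, 1 array stood far from the other 3 by Dixon's test, where chance alone marks about 5% of such sets. One was SFRP1 Ssc.27911.1.S1_at, at 93.4 on X1 against 162.6 to 171.5 on X2 to X4. The other was DLL4, at 67.2 on X1 against 84.7 to 86.6 on X2 to X4. Y1, the array of the same sow, was the lowest of its group for both, at 82.1 for SFRP1 and 72.3 for DLL4. The cause was not tested.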

How the results depend on the processing

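The count of 3 members past the unadjusted threshold (3.56% of all probe sets) was 2 with the sow as a replicate block (5.09% of all). Among the brighter probe sets alone it was 1 of 24 (2.59% of all brighter ones). That was RBPJ, the called FZD6 and TEAD1 probe sets being too dim to enter. Without 1 array it was 2 to 4 (3.20% to 4.29% of all), as it was without 1 sow with the block (4.50% to 5.03% of all). RBPJ kept its direction in 25 alternatives and passed in 24, at limma P-values of 0.00961 to 0.0477 without 1 array or sow. TEAD1 Ssc.15152.1.A1_at lost its call only with a floor at background, without or with the block. FZD6 kept its direction in 24 alternatives and lost its call in 10, among them each of the 4 fits without 1 sow. Between sows, 2 members passed adjustment among the brighter probe sets and 0 in the other alternatives. At an unadjusted P-value under 0.05, the members that differed between sows moved with the share of all probe sets: 14 (19.5% of all) with a trended prior, 13 with 16 added to each signal (20.0%) or a floor at background (20.6%), 11 of 24 among the brighter probe sets (29.4%), 5 without sow 2 (11.1%) and 1 without sow 1 (11.8%). Over all probe sets, 855 passed between sperm types, 1222 with the replicate block, 1459 with the sow as a random block, 311 among the brighter ones, 1297 with the deposited scaling and the block, and 1661 with the floor at background and the block. In members that did not pass, the log2 difference changed sign with the hybridisation controls as a covariate for WNT10B (1.52) and TCF7L1 (-0.072), and with median centring for DKK2 (3.7e-05). Without 1 array it ran from -0.69 to 0.060 for WNT10B, from -0.16 to 0.048 for FZD4, from -0.14 to 0.056 for DKK2, from -0.19 to 0.0265 for JAG1, from -0.21 to 0.080 for HEY2 and from -0.089 to 0.10 for LATS2. With the block it also changed sign for WNT10B without sow 1 (0.093) or sow 3 (0.17), for FZD4 without sow 2 (0.0053), for DKK2 without sow 1 (0.015) and for LATS2 without sow 2 (-0.061). The WNT10B values are below background on every array and carry no direction. NOTCH4 passed without sow 1 with the block (0.38, P-value 0.0332). The deposited scaling or the floor joined to the block were alternatives chosen after the values were seen. The cause of these changes was not tested.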
